A study of Mus musculus with 6 samples.

Results

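The genes described here encode secreted Reg lectins or antimicrobial products of Paneth cells and their neighbours in the intestinal crypt. They were taken by name from the deposited table: Reg3a, Reg3b, Reg3g, Reg1, Reg4, Ang4, Lyz1, Mmp7, Pglyrp1 and Defa17, 10 of 55487 gene identifiers. RNA came from the terminal ileum of C57BL/6 mice at postnatal day 9, with 3 libraries labelled NEC and 3 labelled control. NEC is necrotizing enterocolitis, here a neonatal model that combines gavage with hyperosmolar formula, 10 min sessions of hypoxia (5% O2) given 3 times a day for 4 days, and lipopolysaccharide by mouth, 4 mg/kg/day, on days 6 and 7. The control entries carry the same treatment text, so how the controls were fed and handled is not stated by the labels. The design text calls them normal. The labels do not say whether each library came from a separate animal, so p-values refer to the scatter of these 6 libraries, which can be technical in part.

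Reg3 proteins are small C-type lectins that the gut epithelium secretes into the mucus. Reg3g kills Gram-positive bacteria, and its gene and Reg3b are known to be switched on by microbial signals through MyD88 and by the cytokine IL-22 through STAT3. Paneth cells sit at the crypt base and release alpha-defensins, lysozyme and the ribonuclease Ang4, and in the mouse they appear only as crypts mature during suckling.

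Reg3b, Reg3d, Reg3a, Reg2, Reg1 and Reg3g lie in this order within 98.2 kb of chromosome 6 (mm10, chr6:78370657-78468872), with no other annotated gene between them. Reg3b and Reg3g stand at its ends and on opposite strands. Promoter bases are shown for the 3 Reg3 genes among the members, whose levels differed widely among NEC libraries, and for Ang4, whose call was the most stable. Each run has 150 bases, 5′ to 3′ on the gene's own strand, from RefSeq on GRCm38.p6. The Reg3 runs span bases -175 to -26 from the RefSeq start, at chr6:78370710-78370859 (plus strand, Reg3b), chr6:78468900-78469049 (minus strand, Reg3g) and chr6:78380534-78380683 (plus strand, Reg3a). The Ang4 run spans -250 to -101, at chr14:51773691-51773840 (minus strand). Capitals mark matches to the motifs listed after the sequences.
Reg3b: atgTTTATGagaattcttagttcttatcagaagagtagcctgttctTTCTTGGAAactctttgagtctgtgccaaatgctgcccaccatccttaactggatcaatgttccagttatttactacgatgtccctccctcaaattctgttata
Reg3g: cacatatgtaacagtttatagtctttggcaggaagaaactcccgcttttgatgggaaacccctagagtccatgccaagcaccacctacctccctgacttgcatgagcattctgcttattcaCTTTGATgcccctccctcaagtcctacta
Reg3a: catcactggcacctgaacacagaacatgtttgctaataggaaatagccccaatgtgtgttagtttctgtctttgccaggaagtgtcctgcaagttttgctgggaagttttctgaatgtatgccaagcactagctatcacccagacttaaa
Ang4: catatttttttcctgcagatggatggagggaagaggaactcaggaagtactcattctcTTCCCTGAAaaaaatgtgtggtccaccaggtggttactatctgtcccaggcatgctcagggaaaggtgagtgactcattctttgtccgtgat

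Searched on both strands of the 250 bases before each start were a STAT motif (TTCNNNGAA), a TCF motif (CTTTGAT) and a CDX motif (TTTATG). Of 32851 RefSeq windows of that length, 7.02% held the STAT letters, 3.21% the TCF letters and 10.8% the CDX letters. All members but Defa17 matched the promoter table. Reg3b held a STAT match (TTCTTGGAA) at -129 to -121 and a CDX match at -172 to -167. Reg3g held neither, and had a TCF match at -54 to -48. Reg3a had a TCF match at -7 to -1, outside the run shown, and Ang4 a STAT match (TTCCCTGAA) at -192 to -184. One of the Mmp7 windows held a TCF match on the other strand, and no match lay in the windows of Reg1, Reg4, Lyz1 and Pglyrp1. Outside the members, Reg3d held a STAT match at -238 to -230 and Reg2 a TCF match at -72 to -66. None of the matches overlapped another. The windows of Reg1, Reg2 and Pglyrp1, the matching Mmp7 window and most of the Reg3b window lay inside the annotated gene span. The whole Reg3b run shown is inside it. The Reg3b and Reg3g windows aligned with 173 identical bases, 74 mismatches and 6 gaps, against 132, 79 and 78 for Reg3g and the unlinked Reg4. The Reg3a window, from the same cluster, gave 137, 59 and 108 with Reg3b and 143, 56 and 102 with Reg3g. Both Reg3a pairs thus had fewer mismatches but more gaps than Reg3g with Reg4, so identical bases alone do not rank the pairs. A match describes letters in the window and was not tied to binding.

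Values are FPKM, fragments per kilobase of transcript scaled to the library's size, so levels of different genes are set side by side per length. The depth worked out from the values was 15.2 to 18.7 M fragments per library. Changes are on the log2(FPKM + 1) scale, NEC minus control, with a standard error, and understate the change of genes of low level. A gene was called at a Benjamini-Hochberg adjusted p under 0.05 from limma fitted to the 15806 genes whose mean reached 1 FPKM. Of the members, 8 of 10 passed that level, and Reg3a and Reg1 did not. NEC 1 stood apart from the other libraries: its correlation with NEC 2 and NEC 3 was 0.942 and 0.932, against 0.972 between those, and its summed FPKM was 628698, against 394613 to 450361 in the others. Summed muscle markers were 148 FPKM in NEC 1, 690 to 695 in the other NEC libraries and 791 to 937 in controls, with 6 of 8 markers below every control in all NEC libraries. Enterocyte markers summed to 13661 to 16671 FPKM in NEC and 4010 to 4860 in controls, with 13 of 14 above every control in all NEC libraries and none at 0 throughout. Stem cell markers summed to 25.2 to 53.9 FPKM in NEC and 95.8 to 104 in controls, with 10 of 11 below every control. The part of these cell types in the results that follow was not tested.

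No member was called higher in NEC. Reg4, Ang4 and Pglyrp1 fell, 3 of 8 tested, and the other 5 were not called. Of all tested genes, 7.69% were called higher and 30.6% lower (38.2% either way), so the share of members that fell was near that of all genes. The members' median change was -0.56, against -0.26 for all tested genes. All NEC libraries lay below all controls for 3 of the 8 and above them for 0, while 47.3% and 11.8% of all tested genes did so. The direction of calls over all genes turned with the scaling: 1215 were higher and 4829 lower on the deposited scale, and 3346 and 1712 after TMM factors over all genes, which moved the median change to 0.07. Members called lower numbered 1 under that scaling, Ang4.

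**Figure D1:**
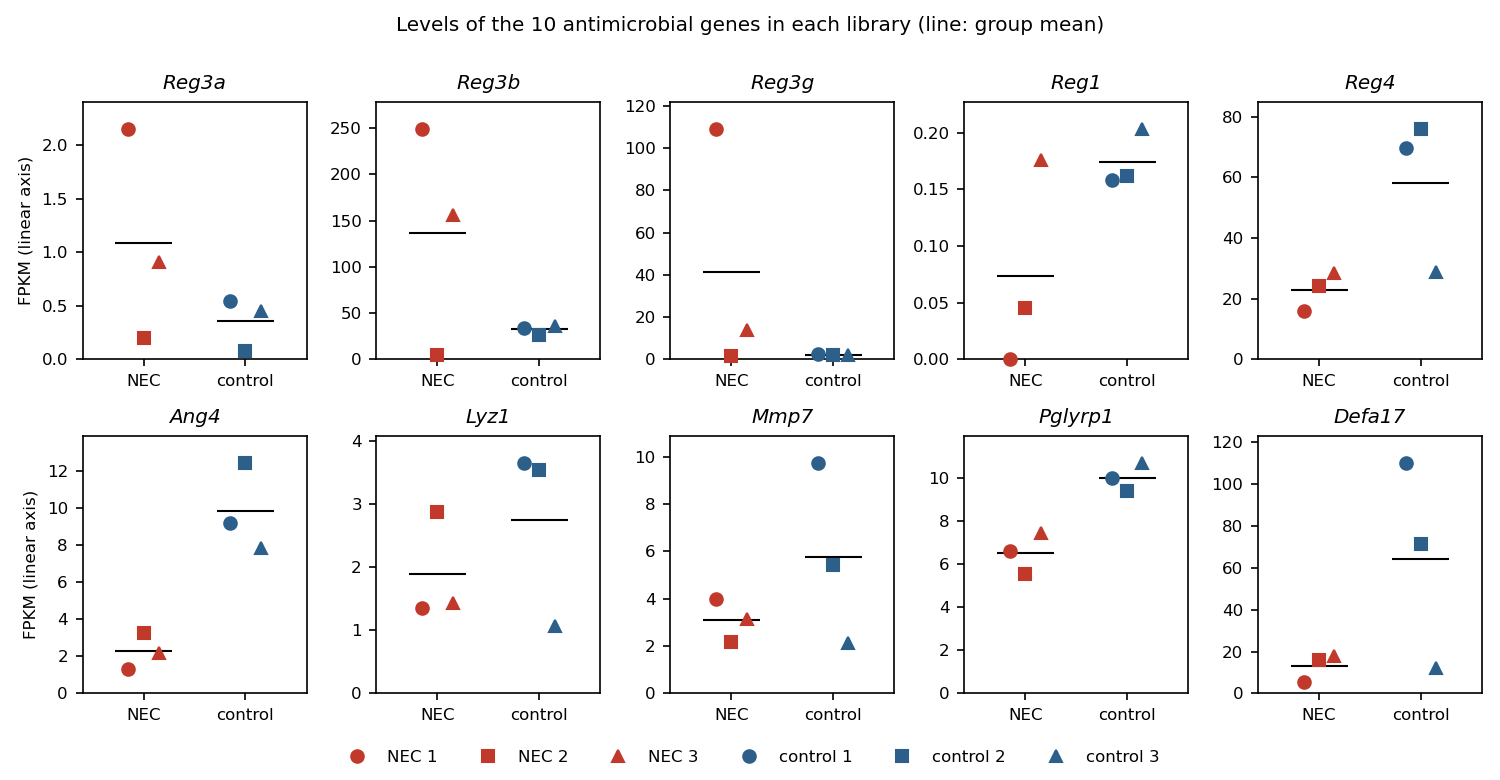
FPKM of each of the 10 genes (vertical axis, linear, own range per panel) in the 3 NEC libraries (red) and 3 control libraries (blue), with the symbol giving the library number and the line the group mean. Reg3b, Reg3g and Reg3a are highest in NEC 1 and low in NEC 2, and control 3 is the lowest control for Reg4, Ang4, Lyz1, Mmp7 and Defa17.

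Reg3b and Reg3g differed far more among NEC libraries than between the groups. Reg3b (ENSMUSG00000071356, chr6:78370657-78373466) read 249, 4.83 and 156 FPKM in NEC 1, 2 and 3, and 34, 26.5 and 36.1 in control 1, 2 and 3. NEC 1 and NEC 3 lay above every control and NEC 2 below every control. Means were 137 ± 123 FPKM in NEC and 32.2 ± 5.06 in controls (SD, n = 3 each), a change of 0.89 with SE 1.32 and an adjusted p of 0.612 by limma.

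Reg3g (ENSMUSG00000030017, chr6:78466269-78468872) gave 109, 1.6 and 13.7 FPKM in NEC 1 to 3, and 2.48, 1.96 and 1.84 in the controls. Again NEC 1 and NEC 3 were above all controls and NEC 2 was below them. Its change was 2.39 with SE 1.21, and the limma adjusted p of 0.156 missed the threshold. Leaving out NEC 2 gave changes of 2.59 for Reg3b (adjusted p = 0.0102) and 3.70 for Reg3g (adjusted p = 0.0352), and leaving out NEC 1 gave -0.12 for Reg3b (adjusted p = 0.947) and 1.0 for Reg3g (adjusted p = 0.287). The call and, for Reg3b, the direction therefore rested on single NEC libraries.

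Spread within the groups showed how far these genes stood from most. The SD of log2(FPKM + 1) over the NEC libraries was 2.96 for Reg3b and 2.70 for Reg3g, against a median of 0.21 for all tested genes. Only 0.0506% of tested genes had a larger NEC SD than Reg3b, and 0.0696% a larger one than Reg3g. Among controls the same SD was 0.23 for Reg3b and 0.15 for Reg3g, where the median gene had 0.09. The ratio of Reg3b to Reg3g FPKM also differed between libraries. It was 2.28, 3.02 and 11.4 in NEC 1 to 3 and 13.7, 13.5 and 19.6 in the controls, so that every NEC ratio was below every control ratio, with no test made.

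**Figure D2:**
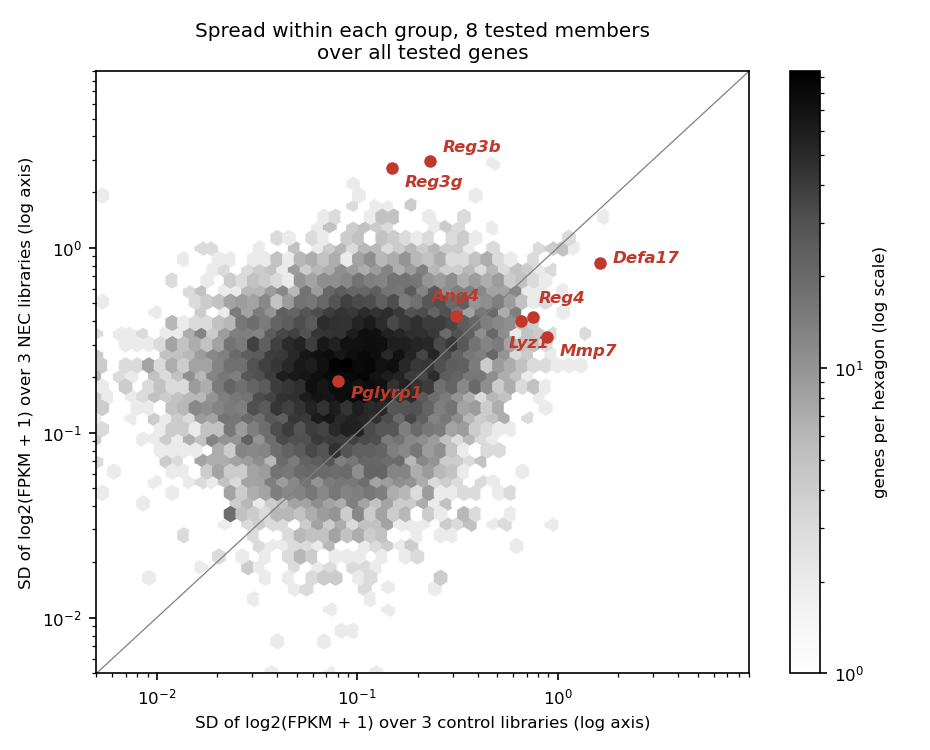
SD of log2(FPKM + 1) over the 3 control libraries (horizontal, log axis) and over the 3 NEC libraries (vertical, log axis), with grey hexagons for all 15806 tested genes and red points for the 8 tested members. Reg3b and Reg3g lie at the top, with NEC SDs of 2.96 and 2.70, while Defa17, Mmp7, Reg4 and Lyz1 lie to the right, with control SDs of 0.66 to 1.63.

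Reg3a (ENSMUSG00000079516, chr6:78380709-78383827), another lectin of the cluster, was near the limit of measurement. It read 2.15, 0.2 and 0.909 FPKM in NEC 1 to 3 and 0.543, 0.0796 and 0.449 in the controls, from an estimated 30, 3 and 14 fragments and 7, 1 and 6 fragments. Its order over the NEC libraries was that of Reg3b and Reg3g, and NEC 2 fell within the control range. Without the filter on level, its change was 0.53 with SE 0.36 and an adjusted p of 0.358 by limma.

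Reg1 (ENSMUSG00000059654, chr6:78422711-78428667), best known as a secreted protein of pancreatic acinar cells, read 0, 0.0452 and 0.176 FPKM in NEC and 0.158, 0.162 and 0.203 in controls. NEC 3 lay within the control range and the other NEC libraries below it. The unfiltered change was -0.13 with an adjusted p of 0.212 by limma. Reg2 was listed at 0 in all libraries, and Reg3d did not exceed 0.128 FPKM. Pancreatic acinar markers summed to 14.2, 7.02 and 4.82 FPKM in NEC and 3.60, 2.93 and 1.87 in controls. All NEC libraries were above all controls for 1 of these 18 markers, Ctrb1, and below for 3. Ctrb1 read 10.8, 4.45 and 1.34 FPKM in NEC 1 to 3 and 0 to 0.292 in controls. It made up most of the sum in NEC 1 and NEC 2. Of the markers, 6 of 18 were at 0 in all libraries, among them the digestive enzyme genes Prss2, Pnlip and Amy2a5.

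Genes whose pattern over the 6 libraries was closest to Reg3b and Reg3g were found by the root mean square difference of centred log2(FPKM + 1) values among 11723 tested protein-coding genes. For Reg3g they were Ifit3b (0.81), Cmpk2 (0.94), Isg15 (0.95), Saa3 (0.95) and Slc9a3 (0.96), against a value of 1.97 for Reg3g around its own mean. Isg15, a ubiquitin-like protein induced by interferon, read 107, 3.52 and 5.41 FPKM in NEC and 4.37 to 8.78 in controls. Saa3, an acute-phase protein, read 14.3, 0.468 and 0.316 FPKM in NEC and 0.15 to 0.202 in controls. Both were far higher in NEC 1 than in any other library. Saa3 and Ifit3b (27.8 FPKM in NEC 1) were under 1 FPKM in all controls and passed the level filter only through NEC 1. In NEC 3, Reg3g and Saa3 were also above every control, while Isg15 lay within the control range. Saa3 was above every control in NEC 2 too, where Reg3g was below them, and did not exceed 0.468 FPKM outside NEC 1.

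For Reg3b the closest were Gm21887 (0.60), Gm47283 (0.87), Apobec1 (1.20), Gvin1 (1.29) and Gm4951 (1.31), against 1.77 for Reg3b around its own mean. Gm21887 read 16.2, 0.0766 and 7.86 FPKM in NEC 1 to 3 and 2.54 to 3.71 in controls, so it too was lowest in NEC 2 and highest in NEC 1. Apobec1, the editing enzyme of apolipoprotein B transcripts, read 8.03, 1.66 and 5.22 FPKM in NEC and 1.52 to 2.60 in controls. Gvin1 and Gm4951 were under 1 FPKM in every library but NEC 1 (6.79 and 5.18 FPKM), so they passed the level filter only through it. Reg3g itself stood at 1.07 from Reg3b.

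Upstream of the Reg3 genes, most measured signalling genes were not called. Of 48 listed genes of IL-22, STAT3 and MyD88 signalling, 30 were tested, 3 rose, 5 fell and 22 were not called, beside 7.69% higher and 30.6% lower over all tested genes. The list's median change was -0.08, against -0.26 for all tested genes. Il18, an epithelial cytokine, rose by 1.44 (SE 0.23, adjusted p = 0.00832 by limma), from 2.08 to 2.27 FPKM in controls to 11.0, 5.24 and 7.80 in NEC 1 to 3. Its receptor chain Il18r1 fell by 2.52 (SE 0.18, adjusted p = 0.00113), from 9.35 to 10.4 FPKM to 0.662, 0.656 and 1.5. Il22ra1, the epithelial IL-22 receptor chain, rose by 0.63 (adjusted p = 0.0096), and read 46.6 to 58.8 FPKM in NEC and 33.2 to 33.7 in controls. That call was lost without control 2 (adjusted p = 0.0501).

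Il1rl1, the IL-33 receptor, also rose, by 0.93. It read 2.99, 2.27 and 1.87 FPKM in NEC and 0.636 to 0.827 in controls, so it passed the level filter only through NEC. Without the filter it was still called (adjusted p = 0.0196 by limma). The other genes that fell were Ahr (-0.61), Il11ra1 (-0.52), the flagellin receptor Tlr5 (-0.47) and Il6st (-0.43), and these 4 lost their call under both TMM scalings and under quantile normalization. With TMM factors over all genes, 8 genes of the list were higher and 1 lower. Il22 itself was at 0 in all controls and at 0.160, 0.0992 and 0 FPKM in NEC.

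Among signalling genes fixed by name, Socs3, the feedback inhibitor that STAT3 induces, read 53.4, 9.78 and 10.9 FPKM in NEC 1 to 3 and 8.86, 7.85 and 9.18 in controls. All NEC values were above the controls, NEC 1 by far, and the change of 0.99 was not called (adjusted p = 0.216 by limma). Stat3 read 15.8 to 20.9 FPKM in NEC and 13.9 to 14.6 in controls, a change of 0.32 that was not called (adjusted p = 0.0706). It passed under both TMM scalings (0.0208 and 0.031), but not under quantile normalization (0.0742) or without the level filter (0.0988). Myd88 was 11.6 FPKM in NEC 1, 5.10 and 5.09 in the other NEC libraries and 5.64 to 6.22 in controls, and was not called (adjusted p = 0.697). Tlr4 and Nod2 were under the level filter, at 0.127 to 0.638 and 0.190 to 0.797 FPKM in NEC and 0.875 to 1.83 and 0.576 to 0.644 in controls. All NEC libraries were below all controls for Tlr4. Without the filter it was called lower, by 0.87 (SE 0.22, adjusted p = 0.0436 by limma), and Nod2 was not called (adjusted p = 0.504).

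**Figure D3:**
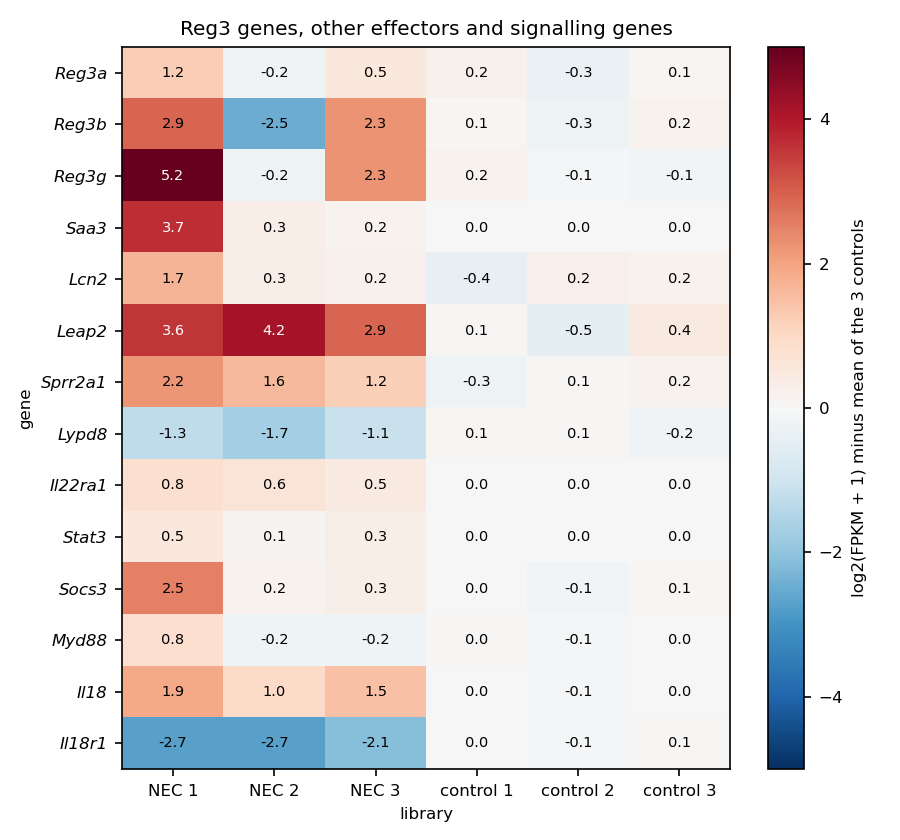
Heat map of log2(FPKM + 1) minus the mean of the 3 controls, for the Reg3 genes, other effectors and signalling genes (rows) in the 6 libraries (columns), red above and blue below the control mean. Reg3b and Reg3g are high in NEC 1 and NEC 3 but not in NEC 2, and Saa3 and Socs3 stand out in NEC 1. Leap2, Sprr2a1 and Il18 are above the control mean in all NEC libraries, and Il18r1 is below it in all of them.

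Other antimicrobial effectors moved in both directions. Of 43 listed, 20 were tested, 5 rose, 5 fell and 10 were not called, beside 7.69% higher and 30.6% lower over all tested genes. The list's median change was 0.19, against -0.26 for all tested genes. Leap2, which encodes a secreted peptide, rose by 3.55 (SE 0.36, adjusted p = 0.00308 by limma) and read 85.9, 131 and 54.4 FPKM in NEC and 4.21 to 8.95 in controls. It was highest in NEC 2, the library where Reg3b and Reg3g were lowest. Sprr2a1, of a family of small proline-rich epithelial proteins, rose by 1.69 (SE 0.26, adjusted p = 0.0083), to 245 to 499 FPKM from 88.8 to 120. Sprr2a2 (0.89), Sprr2a3 (0.87) and the lectin gene Zg16 (1.41) rose too, and the Sprr2a copies are close in sequence, so their reads may be split uncertainly. Zg16 read 4.77, 2.84 and 0.878 FPKM in NEC and 0.187 to 0.505 in controls, so it passed the level filter only through NEC. Without the filter Zg16 was not called (adjusted p = 0.0596 by limma).

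Lypd8, whose product keeps flagellated bacteria off the epithelium, fell by 1.36 (SE 0.18, adjusted p = 0.00591), to 97.4 to 149 FPKM from 283 to 348. Mptx1, a mucosal pentraxin gene, fell by 1.80 (SE 0.57, adjusted p = 0.0453), and read 2.07, 2.83 and 1.61 FPKM in NEC and 16.7, 16.9 and 3.09 in control 1 to 3. The remaining falls were in the chemokine genes Ccl6 (-1.16), Ccl20 (-0.75) and Ccl28 (-0.58). Of the 10 genes called in the list, Leap2, Sprr2a1, Sprr2a2 and Lypd8 kept the call in every alternative in which they were tested. Calls were lost in 13 of 15 alternatives for Ccl6, 12 of 14 for Ccl28, 10 of 15 for Mptx1, 5 of 13 for Zg16, 2 of 14 for Sprr2a3 and 1 of 14 for Ccl20. Lcn2, a siderophore-binding protein, was under the level filter, at 3.38, 0.622 and 0.562 FPKM in NEC and 0 to 0.567 in controls. Pla2g2a did not exceed 0.039 FPKM.

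Among the products of Paneth cells, Ang4 (ENSMUSG00000060615, chr14:51763878-51773590) showed the clearest fall. It read 1.33, 3.26 and 2.19 FPKM in NEC 1 to 3 and 9.21, 12.4 and 7.83 in control 1 to 3, from an estimated 16, 42 and 29 fragments and 102, 134 and 90. Every NEC library was below every control. Means were 2.26 ± 0.966 and 9.82 ± 2.35 FPKM (SD, n = 3 each), a change of -1.75 with SE 0.25 and an adjusted p of 0.00692 by limma. The call held in all 15 alternatives, with adjusted p from 0.00568 to 0.0362. In bulk RNA, fewer cells of a type and less RNA per cell cannot be told apart. Of its 50-base words, 4.7% also occur in other genes, Ang5 and Ang2.

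Defa17 (ENSMUSG00000060208, chr8:21655780-21656735), an alpha-defensin, read 5.66, 15.9 and 18.1 FPKM in NEC and 110, 71.3 and 12.1 in control 1 to 3. Control 3 lay within the NEC range and the other controls far above it. The change was -1.87 with SE 0.82 and an adjusted p of 0.11 by limma, and without control 3 it was -2.79 (adjusted p = 0.031). Controls differed 9.06-fold from highest to lowest, and 0.114% of tested genes had a larger control SD. Of the 50-base words of Defa17, 92% also occur in other genes, among them Defa3, Defa30 and Defa23, so its level cannot be assigned to 1 gene with certainty.

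Of 39 alpha-defensin entries, 22 were protein-coding, of which 5 were at 0 in all libraries and 6 had a mean of at least 1 FPKM. Summed over the 22, the level was 26.5, 48.6 and 55.6 FPKM in NEC 1 to 3 and 286, 186 and 29.1 in control 1 to 3. Control 3 thus lay with the NEC libraries. Defa24 and Defa17 together held 79.6% to 99% of this sum in each library, so it largely repeats those genes. The number of these genes above 0 was 7, 9 and 12 in NEC and 15, 16 and 3 in the controls. Defa24 was the highest on average, at 18.2, 30.5 and 31.1 FPKM in NEC and 118, 81.1 and 16.6 in controls, with control 3 below every NEC library. Defa32 and Defa2, near-identical to other copies, read 0.517 to 1.13 FPKM in NEC, 9.71 to 18.5 in control 1 and control 2, and 0 in control 3.

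Mmp7 (ENSMUSG00000018623, chr9:7692090-7699585), the matrilysin that activates mouse alpha-defensin precursors, read 3.98, 2.17 and 3.16 FPKM in NEC and 9.71, 5.41 and 2.14 in control 1 to 3. Control 3 was just below the lowest NEC library and the other controls were above all 3. Its change was -0.57 with SE 0.43 (adjusted p = 0.32 by limma), and -1.04 without control 3 (adjusted p = 0.0596). An antisense gene, AV064505, overlaps it and was listed at 0 in all libraries.

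Lyz1 (ENSMUSG00000069515, chr10:117287797-117292868), the Paneth cell lysozyme, read 1.36, 2.88 and 1.44 FPKM in NEC and 3.65, 3.54 and 1.07 in control 1 to 3, from an estimated 22 to 72 fragments. As for Mmp7, control 3 was the lowest library and the other controls were the highest. The change was -0.32 with SE 0.36 (adjusted p = 0.491 by limma), and its sign turned under quantile normalization (0.02). Lyz2, the lysozyme of macrophages, shares 16.1% of the 50-base words of Lyz1, and read 36.2 to 44.2 FPKM in NEC and 24.8 to 53.3 in controls. Macrophage markers summed to 99.9 to 115 FPKM in NEC and 101 to 131 in controls, with 7 of 12 below every control in all NEC libraries and 0 above.

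Reg4 (ENSMUSG00000027876, chr3:98222156-98236748), a secreted lectin of enteroendocrine and other secretory cells, read 15.9, 24.3 and 28.6 FPKM in NEC and 69.6, 75.9 and 28.9 in control 1 to 3. The groups did not overlap, but control 3 lay just above NEC 3. Means were 22.9 ± 6.46 and 58.2 ± 25.5 FPKM (SD, n = 3 each), a change of -1.23 with SE 0.39 and an adjusted p of 0.047 by limma. The call was lost in 13 of 15 alternatives, with adjusted p up to 0.141. Enteroendocrine markers summed to 40, 41.9 and 77.0 FPKM in NEC and 88.5, 87.9 and 71.3 in controls. Goblet cell markers summed to 730, 863 and 1181 FPKM in NEC and 1514, 1473 and 1127 in controls, so NEC 3 and control 3 were close in both sums. All NEC libraries were below all controls for 4 of 16 enteroendocrine and 4 of 10 goblet markers, and above them for 1 of each list.

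Pglyrp1 (ENSMUSG00000030413, chr7:18871331-18890459), a peptidoglycan-binding protein stored in neutrophil granules and also made in the gut, read 6.64, 5.54 and 7.48 FPKM in NEC and 10.0, 9.43 and 10.7 in controls. All NEC libraries were below all controls. Means were 6.55 ± 0.974 and 10.0 ± 0.617 FPKM (SD, n = 3 each), a change of -0.55 with SE 0.12 and an adjusted p of 0.0179 by limma. TMM scaling over all genes gave -0.17 (adjusted p = 0.359) and over tested genes -0.25 (0.19), quantile normalization gave -0.37 (0.065), and the call was also lost without control 1 (0.0681), control 2 (0.0606) or control 3 (0.0639). Neutrophil markers summed to 71.9 to 76.4 FPKM in NEC and to 15.8, 72.8 and 73.3 in control 1 to 3, with 3 of 17 above every control in all NEC libraries and 1 below. The part of neutrophils in the level of Pglyrp1 was not tested.

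**Figure D4:**
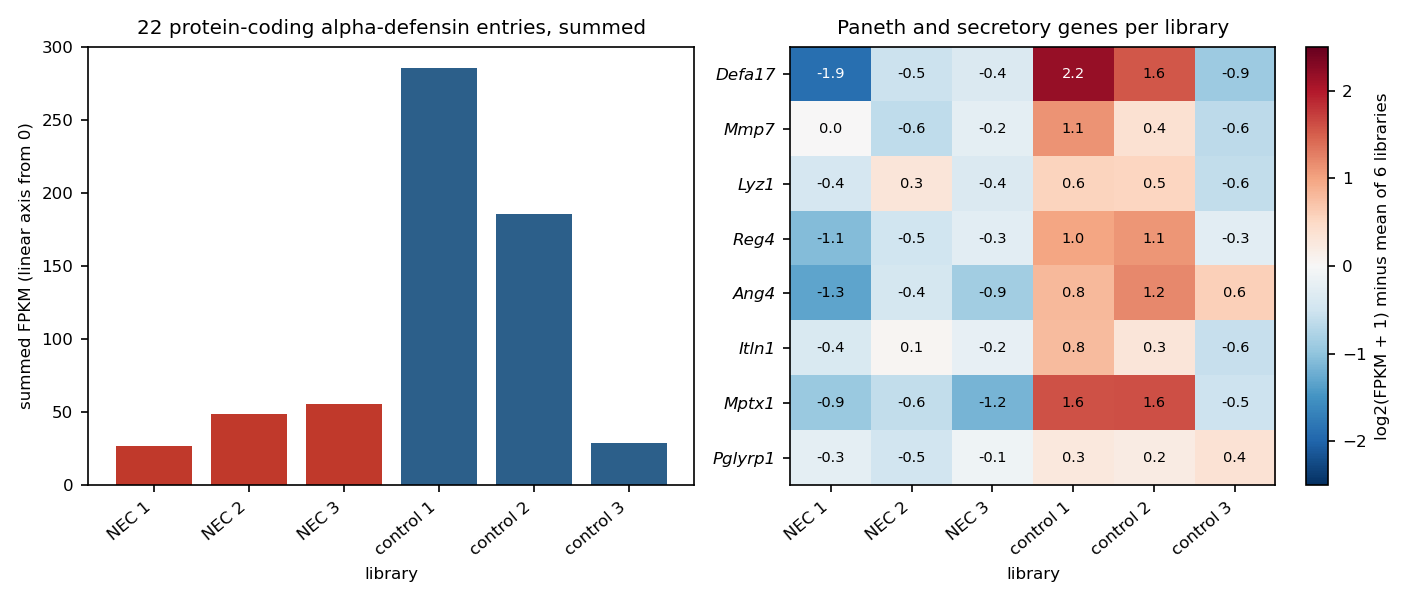
Left, summed FPKM of the 22 protein-coding alpha-defensin entries in each library (bars from 0), from 286 in control 1 to 26.5 in NEC 1, with control 3 at 29.1. Right, heat map of log2(FPKM + 1) minus the mean of the 6 libraries for members and further secretory genes, in which control 3 is below the mean for Defa17, Mmp7, Lyz1, Reg4, Itln1 and Mptx1 and above it for Ang4 and Pglyrp1.

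Regulators of the Paneth and secretory lineage were called lower at a share near that of all genes. Of 30 listed, 26 were tested, 0 rose, 10 fell and 16 were not called, beside 7.69% higher and 30.6% lower over all tested genes. Their median change was -0.32, close to the -0.26 of all tested genes. Sox9, a transcription factor needed for Paneth cells, fell by 1.04 (SE 0.13, adjusted p = 0.00506 by limma), to 2.63 to 3.69 FPKM from 7.09 to 8.27. Atoh1, which directs cells to the secretory fate, fell by 1.05 (SE 0.22, adjusted p = 0.0161), to 1.31, 2.78 and 2.32 FPKM in NEC 1 to 3 from 5.73, 6.38 and 4.16. Control 3 was the lowest control for Atoh1 and the highest for Sox9.

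Ephb3, a receptor that positions Paneth cells, fell by 0.84, its ligand gene Efnb1 by 0.82 and Ern2 by 0.79. Sox9, Ephb3 and Efnb1 kept the call in every alternative in which they were tested, and Atoh1 lost it without control 1 or control 2 (adjusted p up to 0.0656). Ern2 lost it in 4 of 15 alternatives, namely TMM factors over all genes and without NEC 2, control 1 or control 2 (adjusted p up to 0.073). TMM factors over all genes gave 5 genes of the list higher and 4 lower. Xbp1, which expands the secretory apparatus, read 10.6 to 17.8 FPKM in NEC and 9.21 to 10.1 in controls and was not called (adjusted p = 0.175). Gfi1 stayed under the level filter, at 0.215 to 0.397 FPKM in NEC and 0.533 to 0.909 in controls. Itln1, an intelectin of Paneth and goblet cells, was also under it, at 0.246 to 0.687 FPKM in NEC and 1.82, 1 and 0.0856 in control 1 to 3, again with control 3 lowest.

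**Figure D5:**
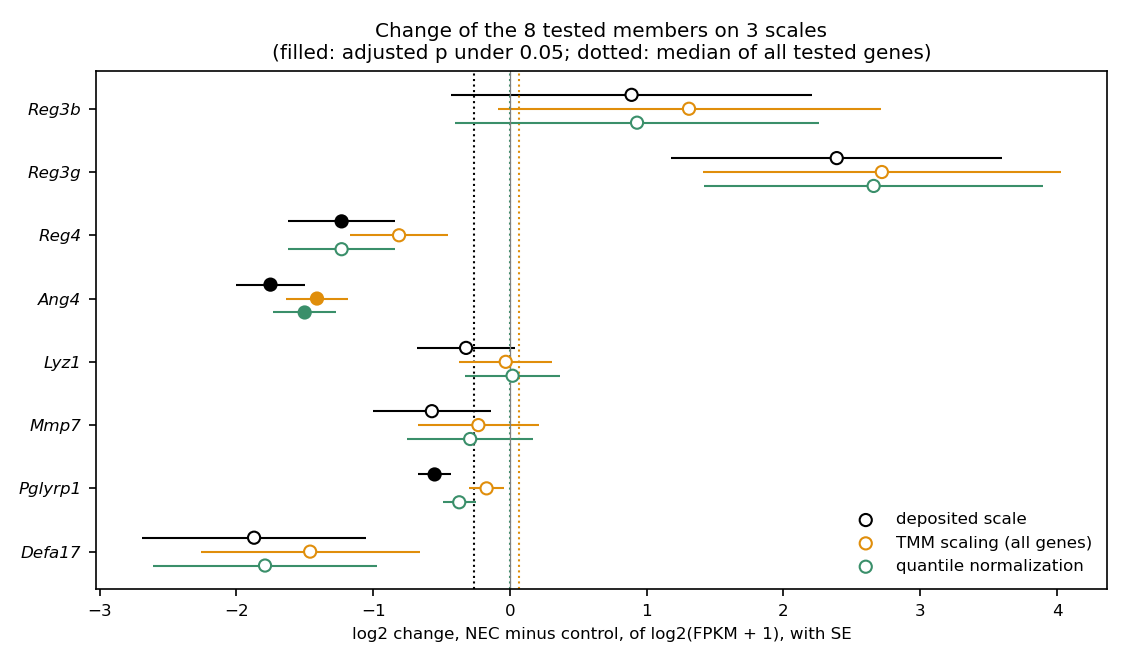
Change in log2(FPKM + 1), NEC minus control, with SE (horizontal), for the 8 tested members (rows) on the deposited scale (black), after TMM factors over all genes (orange) and after quantile normalization (green). Filled points have an adjusted p under 0.05 and dotted lines mark the median of all tested genes. Ang4 is filled on all 3 scales, and Reg4 and Pglyrp1 on the deposited scale only.

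Set library by library against the control range, the 10 members split differently in each NEC library. NEC 1 had 3 above all controls (Reg3a, Reg3b and Reg3g) and 5 below, NEC 2 had 0 above and 6 below, and NEC 3 had 3 above, the same 3 Reg3 genes, and 3 below. Of all tested genes, 19.5% lay above and 68.8% below in NEC 1, 22.1% and 60.8% in NEC 2, and 21.8% and 58.2% in NEC 3. These shares cover only genes that passed the level filter, while the member counts include Reg3a and Reg1, which did not. Reg4, Ang4 and Pglyrp1 were below the controls in all NEC libraries.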

How the data were processed

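RNA of 6 libraries was measured. Cuffdiff, HISAT2, SAMtools 1.3.1 and the build mm10 are named in the submitters' processing notes. Annotation, strand setting and other versions are not given in the sources used here. Deposited values carry no unit in the header and were taken to be the authors' FPKM, the unit that Cuffdiff gives, because low values were multiples of 1 fragment over the transcript's length (98.6% to 98.7% whole within 0.01 below 100 fragments). Those steps gave the depth and the fragment estimates of single-transcript genes. Columns beginning with N were read as NEC. Of 55487 identifiers, 55141 matched GENCODE M21, on the same build.

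The test was limma 3.58.1 (R 4.3.3) with trended variance, on log2(FPKM + 1) of genes whose mean reached 1 FPKM, by group alone. A check on simulated data drew independent noise for each gene, so it could not show effects of an outlying library or of the scaling. An exact permutation test of 3 against 3 libraries cannot go below p = 0.1 and was not used. The text names all members, Reg2, Reg3d, up to 4 defensins, up to 5 called genes each way per list, 15 genes fixed by name, and the 5 genes closest to Reg3b and to Reg3g. Members and lists were chosen with earlier results of these data known. The 15 alternatives changed the pseudocount, filter, scaling, trend, block or left out 1 library. TMM factors were first computed over all genes; the version over tested genes was added after those results were seen. Same-numbered libraries did not deviate together.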

Additional observations from a re-analysis of the deposited data

How the results depend on the processing

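Each count is given as higher and lower in NEC. TMM factors over all genes gave 3346 and 1712 of all genes, 0 and 1 of the members, 6 and 2 of the effectors, 8 and 1 of the signalling list and 5 and 4 of the Paneth lineage list. TMM factors over the tested genes, a choice made after the first TMM results were seen, gave 2638 and 2252, 0 and 1, 5 and 2, 7 and 1, and 2 and 6. Quantile normalization gave 2202 and 2387, 0 and 1, 5 and 1, 6 and 1, and 0 and 7, and a change of 0.02 for Lyz1. A mean of at least 5 FPKM, with fewer genes tested, left 1746 lower over all genes, 3 and 1 of the effectors, 3 lower in the signalling list and 6 lower in the lineage list. Pseudocounts of 0.1 and 0.01 each left 3 effectors lower. Elsewhere the cause was not tested.

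Replicate numbers are not stated to pair libraries, and the deviations of same-numbered libraries correlated at -0.051, -0.007 and -0.074. A fit with the replicate block left 3 effectors, 2 signalling genes and 6 lineage genes lower, and Reg4 at an adjusted p of 0.07.

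Leaving out 1 library gave ranges of 471 to 1566 higher and 917 to 5378 lower over all genes, 0 to 2 and 1 to 3 of the members, 3 to 5 and 2 to 4 of the effectors, 2 to 4 and 1 to 8 of the signalling list, and 0 to 1 and 3 to 10 of the lineage list. The 2 members called higher were Reg3b and Reg3g without NEC 2, and Reg3b ranged to 2.59 there and was at -0.12 without NEC 1. Reg3a, Lyz1, Ang4 and Mmp7 rest on few estimated fragments, which limits their precision. Reg1 has no fragment estimate and did not exceed 0.203 FPKM, so its precision is limited too.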
